A study of Mus musculus with 12 samples.

Results

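Cd7, Cldn1, Slc6a9 and Wdr95 are 4 of the 32227 genes in the count table. They were chosen by their measured counts, as steep rises from immature to mature basophils, so their change between those stages is given here as a description with no test. All 4 passed the filter on low counts, which kept 15083 genes. Gene expression was measured by bulk RNA-seq in basophil-lineage cells sorted from C57BL/6J WT mice with no treatment, in 4 groups of 3 libraries, each library pooled from 4 animals. The first 3 groups came from the bone marrow (BM): CD34+ basophil progenitors (BaPs), CD34- pre-basophils that were high for CLEC12A and low for CD9 (named immature basophils in the sample titles), and mature basophils that were low for CLEC12A and high for CD9. The fourth group was mature basophils with the same surface phenotype from the spleen. BaPs and pre-basophils are the immature groups below. The ages of the mice were not given in the sources used here, and p-values measure the spread between pools, not between single animals.

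Basophils are scarce blood granulocytes that bind IgE through a high-affinity receptor and release histamine, proteases and IL-4. They arise in the bone marrow from BaPs, and mature cells pass to the blood and spleen. Cd7, Cldn1 and Slc6a9 encode membrane proteins with well-known roles outside this lineage. CD7 is an immunoglobulin-type surface receptor of T cells, NK cells and their precursors that binds SECTM1 proteins and galectin-1 and can recruit phosphoinositide 3-kinase (PI3K). Claudin-1, the product of Cldn1, is a backbone protein of tight junctions between epithelial cells. The product of Slc6a9 is GlyT1, which carries glycine into cells together with sodium and chloride and is best known from glia and red cell precursors. Wdr95 encodes a protein with WD repeats, units that fold into a propeller-shaped platform for contacts with other proteins.

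The genes lie on different chromosomes. In the GENCODE M21 annotation of GRCm38, Cd7 spans chr11:121036747-121039418 on the minus strand, Cldn1 spans chr16:26356642-26371841 on the minus strand, Slc6a9 spans chr4:117834506-117875198 on the plus strand and Wdr95 spans chr5:149528679-149611894 on the plus strand. All are protein-coding. The RefSeq promoter table for GRCm38.p6 held starts for 2 of the 4 genes, Cldn1 and Slc6a9. The 250 bases before the start of Cldn1 (chr16:26371840-26372089, minus strand) and before the third listed start of Slc6a9 (chr4:117855297-117855546, plus strand) are shown because these genes had the lowest BaP levels and both were higher in mature cells, so that the sequence next to their starts can be read beside their values. Capitals mark matches to GATAA, the core bound by GATA factors, and to CANNTG, the E-box, on either strand.
Cldn1: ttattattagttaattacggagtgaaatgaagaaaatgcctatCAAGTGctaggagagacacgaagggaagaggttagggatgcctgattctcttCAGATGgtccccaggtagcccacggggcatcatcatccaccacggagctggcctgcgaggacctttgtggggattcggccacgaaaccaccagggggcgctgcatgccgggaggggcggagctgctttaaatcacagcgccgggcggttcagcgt
Slc6a9: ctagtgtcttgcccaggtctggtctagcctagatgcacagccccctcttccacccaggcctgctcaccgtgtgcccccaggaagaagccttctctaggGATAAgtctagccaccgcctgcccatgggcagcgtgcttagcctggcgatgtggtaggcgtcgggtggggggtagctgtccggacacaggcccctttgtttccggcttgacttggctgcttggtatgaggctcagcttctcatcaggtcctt
The Cldn1 stretch held 2 E-boxes and no GATAA. The Slc6a9 stretch held 1 GATAA and no E-box. The table lists 3 starts of Slc6a9, and the third is shown because the stretches before the others lie mostly in annotated exons. Before the first start there were 4 E-boxes and no GATAA, and before the second neither. Of all 32851 promoters in the table, cut to the same length, 22.6% held GATAA and 66.2% held CANNTG, so neither motif is rare. TGTGGT, the RUNX core, was found in 14.0% of promoters and had 1 match before Slc6a9, where it does not overlap the GATAA. TTCNNNGAA, the STAT palindrome, was found in 7.02% of promoters and had no match in either stretch. A match or its absence describes the letters of these windows alone.

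The identity of the sorted cells was checked with marker lists, in CPM, the counts scaled to a common library total. Basophil markers were abundant in every library, with a summed level of 7491 to 71732 CPM over 11 genes, but lower in mature ones. The sums were 25586 to 68776 CPM in BaP and 62151 to 71732 in pre-basophil libraries. In BM mature libraries they were 13434 to 16361 CPM, and in spleen mature libraries 7491 to 8409. The mast cell list was near 0 in mature libraries (0.955 to 2.72 CPM over the 5 of its 8 genes in the table). One library stood apart. BaP replicate 3 had the highest level of 23 of 24 NK and T cell markers, with a sum of 2148 CPM against 353 to 457 in the other BaP libraries, and also the largest sum of erythroid markers (2420 CPM over 10 genes). Its summed basophil markers were the lowest among the BaP libraries, at 25586 CPM. Results below are given with and without this library. Totals ran from 3596108 to 8151030 counts, and a count of 0 allows up to 3 counts, or 0.29 to 0.955 CPM depending on the library. These floors cover counting error only, since PCR copies are not marked in these libraries.

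Per kilobase of exon, Cd7 was the most abundant of the 4 genes in every group. Its level in the BaP libraries was 19.8, 20.3 and 213 CPM. In the pre-basophil libraries it was 101, 128 and 138 CPM. The 2 low BaP libraries lay below all pre-basophil libraries, and BaP replicate 3 lay above them. In BM mature basophils Cd7 reached 1044, 1035 and 1097 CPM, and in spleen mature basophils 1454, 1450 and 1416 CPM. Every mature library exceeded every immature one, and every spleen library exceeded every BM mature one. From BaP to spleen, the group means were 84.3 ± 111, 122 ± 19, 1059 ± 33.4 and 1440 ± 20.8 CPM (SD, n = 3 each). The spleen level of 1271 CPM per kilobase of exon was higher than that of 99.7% of the genes tested.

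Wdr95 was near the bottom of detection in most immature libraries and moderately high in mature ones. Its BaP levels were 2.63, 2.83 and 11.5 CPM and its pre-basophil levels 3.07, 2.19 and 7.04 CPM. Replicate 3 was the highest library in both groups, and the groups overlapped. BM mature basophils held 116, 101 and 105 CPM, and spleen mature basophils 189, 189 and 221 CPM. The spleen libraries again lay wholly above the BM ones. The means were 5.66 ± 5.08, 4.1 ± 2.58, 108 ± 8.12 and 200 ± 18.1 CPM from BaP to spleen (SD, n = 3 each).

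Slc6a9 was the only one of the 4 genes whose pre-basophil libraries all lay above all 3 BaP libraries. It had 0.239, 0.943 and 1.65 CPM in BaPs, from 1, 4 and 17 reads. In pre-basophils it had 5.31, 6.57 and 4.16 CPM. BM mature libraries had 23.6, 24.3 and 22.3 CPM, and the spleen libraries 30.7, 35.6 and 32.5 CPM. The 4 groups did not overlap and followed the order BaP, pre-basophil, BM mature, spleen mature. The means were 0.943 ± 0.704, 5.35 ± 1.21, 23.4 ± 1.02 and 33 ± 2.49 CPM (SD, n = 3 each).

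Cldn1 was close to undetected in immature cells. One BaP and 1 pre-basophil library had no Cldn1 read. The other BaP libraries had 3 and 18 reads (0.707 and 1.74 CPM), and the other pre-basophil libraries 2 and 7 reads (0.487 and 1.12 CPM). BM mature basophils held 22.6, 14.5 and 27.1 CPM and spleen mature basophils 14.6, 15.8 and 29.1 CPM, from 58 to 219 reads a library. The mature groups overlapped each other and lay above every immature library. Cldn1 varied more between mature pools than the other 3 genes, with a coefficient of variation of 29.8% in BM and 40.5% in spleen, against 1.44% to 9.05% for the others. In each of the 4 groups replicate 3 had the highest Cldn1 level and also the largest total of counts. The part of replicate number or depth in this spread was not tested. The means were 21.4 ± 6.39 CPM in BM and 19.8 ± 8.04 CPM in spleen (SD, n = 3 each). Of the epithelial markers, Krt8, a keratin, stayed at or below 0.956 CPM and the adhesion molecule Epcam at or below 2.42 CPM in all 12 libraries, while the keratin Krt18 was at 12 ± 3.5 CPM in BaPs, 8.65 ± 1.24 in pre-basophils and 6.12 ± 1.78 in spleen (SD, n = 3). The summed list of epithelial, endothelial and stromal markers ran from 372 to 519 CPM in BaPs, 599 to 639 in pre-basophils, 668 to 750 in BM mature and 709 to 822 in spleen mature libraries. Most of that rise lay in 1 gene, Cdh1, encoding E-cadherin, at 207 ± 56.2 CPM in BaPs and 523 ± 38.6 in spleen mature basophils (SD, n = 3). Pecam1, also on the list, was level, at 241 ± 24.1 CPM in BaPs and 234 ± 16.7 in spleen. The part of epithelial, endothelial or stromal cells in the Cldn1 level was not tested.

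**Figure D1:**
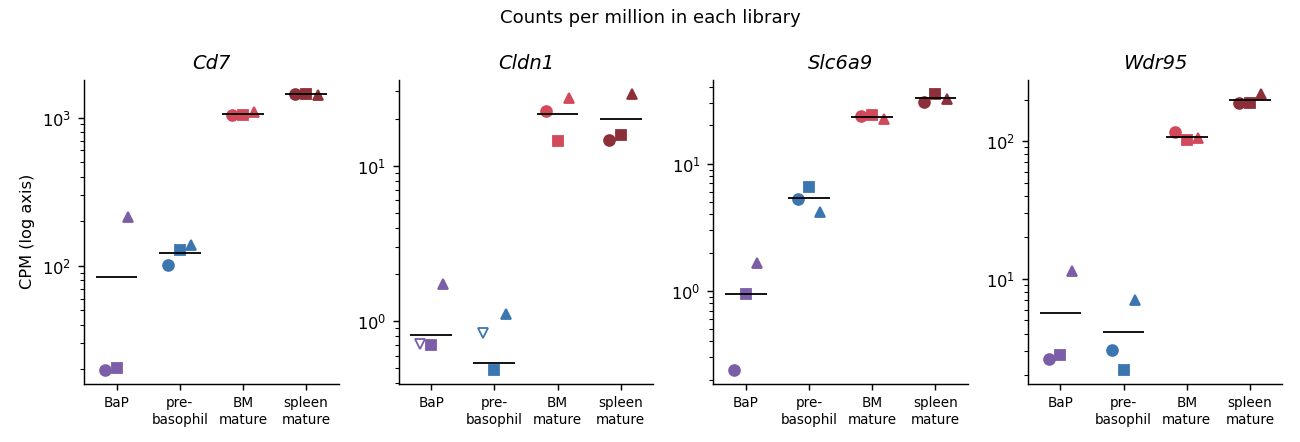
Level of each gene in CPM (log axis, own range per panel) in the 12 libraries, by group. Circles, squares and triangles are replicates 1, 2 and 3, black lines are group means, and open triangles pointing down mark libraries with no Cldn1 read, drawn at the level of 3 counts. All 6 mature libraries lie above all 6 immature ones in every panel, from 1035 CPM against at most 213 CPM for Cd7 to 14.5 CPM against at most 1.74 CPM for Cldn1.

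Per kilobase of exon, the order in spleen mature basophils was Cd7 (1271 CPM), Wdr95 (57.4 CPM), Slc6a9 (6.41 CPM) and Cldn1 (4.1 CPM). In BM mature basophils the last 2 genes did not differ beyond their spread, with 4.33 to 4.72 CPM per kilobase for Slc6a9 and 3 to 5.61 for Cldn1. In spleen their ranges also met, at 5.98 to 6.93 for Slc6a9 and 3.01 to 6.01 for Cldn1. Mature levels of Slc6a9 and Cldn1 per kilobase were close to the middle of the genes tested, above 57% and 56.3% of them in BM.

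The step from pre-basophil to BM mature basophil, one of those that the choice rests on, had fitted log2 fold changes of 5.04 for Cldn1 (SE 0.64), 4.60 for Wdr95 (SE 0.44), 3.11 for Cd7 (SE 0.65) and 2.14 for Slc6a9 (SE 0.26). These are 33-fold, 24.3-fold, 8.63-fold and 4.42-fold. The Cldn1 value rests on 9 reads over the 3 pre-basophil libraries and was 6.25 without pre-basophil replicate 3, which leaves 2 reads, so that it then depends on the constant the fit adds. Among 1441 genes with a higher level in BM mature basophils at an adjusted p under 0.05 and a mean of at least 10 CPM, Cldn1, Wdr95 and Cd7 took ranks 1 to 3 and Slc6a9 rank 20. Just outside lay Slc26a11, at rank 4 with a log2 fold change of 3.10, then Mapk12 (2.86) and Ccl6 (2.71), which were not chosen, and just below Slc6a9 lay Hivep2 (2.13), Dmxl2 (2.07) and Samhd1 (2.07). From BaP to BM mature basophil Slc6a9 took rank 1 (4.36) and Cldn1 rank 2 (4.35) of 2372, with Wdr95 at rank 5 (4.04) and Cd7 at rank 8 (3.61). Without BaP replicate 3 the same step was larger for each gene, at 5.23 for Slc6a9, 5.82 for Cldn1, 5.28 for Wdr95 and 5.71 for Cd7. All 6 immature libraries lay below all 6 mature ones for the 4 genes, as they did for 11.6% of the genes tested, and in BM mature against pre-basophil libraries 11% of genes passed the test as higher and 16.3% as lower. Since the choice used these levels, nothing is read from the 4 counts. In bulk RNA, more RNA per cell and more cells that carry the RNA cannot be told apart.

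**Figure D2:**
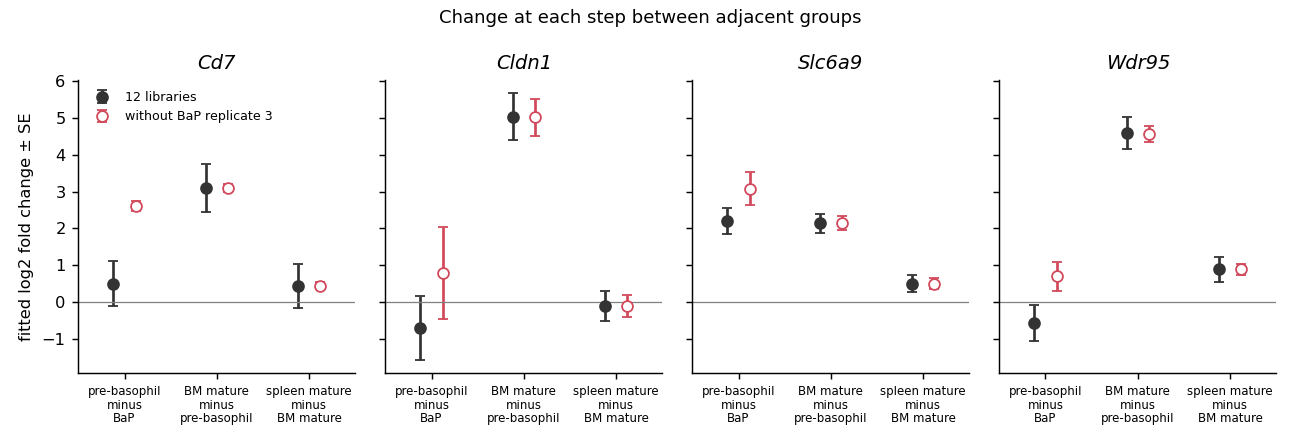
Fitted log2 fold change with its SE (vertical axis) at each step between adjacent groups, with all 12 libraries (filled) and without BaP replicate 3 (open). The step to BM mature basophils is one of those that the choice rests on. Leaving out the library moved the first step of Cd7 from 0.50 to 2.61 and narrowed the errors of Cd7 at all steps.

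The 2 remaining steps, pre-basophil against BaP and spleen against BM mature basophils, lie within the immature and within the mature groups and were tested. They share the pre-basophil and BM mature libraries with the choice, which does not state which immature and mature groups it used. If BaP levels were used, the first step is not independent of the choice, above all for Slc6a9 with its rank 1 from BaP to BM mature basophil. If spleen levels were used, the second is not independent of it either. Pre-basophils exceeded BaPs in Slc6a9 by 4.64-fold (log2 2.21, SE 0.35, adjusted p = 0.00257 in edgeR's quasi-likelihood test with Benjamini-Hochberg adjustment over all genes tested, 3 against 3 libraries). That is 1 gene of the 4, where 4.29% of all genes passed as higher and 2.79% as lower in pre-basophils. Pre-basophil libraries lay wholly above BaP libraries for 13% of genes tested. Without BaP replicate 3 the difference was 8.45-fold (adjusted p = 0.000224 in edgeR), against 5 reads in the 2 BaP libraries left. In a test against a minimum change of 2-fold, Slc6a9 did not pass (adjusted p = 0.34 in edgeR).

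Cd7 differed between pre-basophils and BaPs by a log2 fold change of 0.50 (SE 0.62, adjusted p = 0.693 in edgeR) with all libraries and did not pass the test. Without BaP replicate 3 it was 6.08-fold higher in pre-basophils (log2 2.61, SE 0.14, adjusted p = 4.34e-09 in edgeR), where 6.47% of 14723 genes passed as higher. With all 12 libraries but no filter on low counts, Cd7 also passed (log2 0.48, adjusted p = 0.0216 in edgeR), so the call turned on BaP replicate 3 and on the filter. In that library Cd7, a gene that T and NK cells express, stood at 213 CPM where the other BaP libraries had 19.8 and 20.3. NK and T cell markers were raised in it as a group, among them Klrd1 and Klrk1, receptors of NK cells, at 102 and 166 CPM against at most 5.01 and 16.8 CPM in the other 11 libraries. Their part in the Cd7 level of that library was not tested. In mature basophils, where Cd7 was highest, the summed NK and T cell markers stood at 130 to 234 CPM in BM and 149 to 153 CPM in spleen libraries, against 226 to 253 CPM in pre-basophils. That lower sum came from 1 gene. Nkg7, a granule protein of NK and T cells and the most abundant marker of that list, was at 204 ± 14.2 CPM in pre-basophils, 66.3 ± 9.74 in the BM mature group and 41.9 ± 7.16 in the spleen (SD, n = 3). The other 23 markers together were higher in each mature library than in any pre-basophil library, with a sum of 39 ± 9.15 CPM in pre-basophils, 99.7 ± 49 in BM mature basophils and 109 ± 5.56 in spleen (SD, n = 3). Per library they summed to 71.6, 71.1 and 156 CPM in BM mature basophils beside a Cd7 level of 1044, 1035 and 1097 CPM. In BaP replicate 3 they summed to 1663 CPM beside a Cd7 level of 213 CPM. Their part in the Cd7 level of mature libraries was not tested.

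Wdr95 and Cldn1 did not pass the test between pre-basophils and BaPs. Wdr95 had a log2 fold change of -0.56 (SE 0.49, adjusted p = 0.545 in edgeR), which became 0.70 without BaP replicate 3 (adjusted p = 0.277 in edgeR). Cldn1 had -0.70 (SE 0.87, adjusted p = 0.696 in edgeR), and its 21 BaP and 9 pre-basophil reads are too few to show a difference of that size. For both genes the sign turned with the one library.

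In spleen against BM mature basophils none of the 4 genes passed the test in edgeR with all 12 libraries in the fit, nor in DESeq2, which gave no adjusted p for Cd7, and 1 (Wdr95) passed in limma-voom. In edgeR, 3.16% of all genes passed as higher and 4.67% as lower in spleen. Wdr95 and Slc6a9 had an unadjusted p under 0.05 there. Wdr95 was 1.86-fold higher in spleen (log2 0.89, SE 0.34, unadjusted p = 0.0186 and adjusted p = 0.118 in edgeR). Slc6a9 was 1.41-fold higher (SE 0.23 on the log2 scale, unadjusted p = 0.0448 and adjusted p = 0.19 in edgeR) and Cd7 1.36-fold higher (log2 0.44, SE 0.60, adjusted p = 0.692 in edgeR). Spleen libraries lay wholly above BM libraries for these 3 genes, as they did for 16.6% of all genes tested. BaP replicate 3 takes no part in this comparison but enters the spread that all groups share. Without it, adjusted p-values in edgeR were 0.000535 for Wdr95, 0.00513 for Cd7 and 0.0381 for Slc6a9, at fold changes of 1.86, 1.36 and 1.41, and 7.99% of genes passed as higher in spleen. A fit of the 2 mature groups alone also called the 3 genes, with adjusted p = 4.7e-05, 0.00587 and 0.0237 in edgeR. The SE of Cd7 was 0.10 without BaP replicate 3 and 0.60 with it. If spleen levels entered the choice of the genes, these p-values are not independent of it. Cldn1 differed by a log2 fold change of -0.11 (SE 0.42, adjusted p = 0.906 in edgeR), a value whose sign turned without BM mature replicate 3 (0.11) and without spleen mature replicate 1 (0.07) or 2 (0.03). B and plasma cell markers were also higher in spleen, at 229 to 390 CPM in sum against 48.1 to 63.5 in BM, and megakaryocyte and platelet markers at 715 to 1051 against 583 to 665. Their part in the higher levels of Wdr95, Slc6a9 and Cd7 in spleen was not tested.

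Each gene was next set beside relatives and partners, with the 4 genes themselves left out of every list. Slc6a9 belongs to the SLC6 family of sodium- and chloride-dependent transporters, of which 6 others passed the count filter. One was higher and 1 lower in BM mature basophils than in pre-basophils, where 11% of all genes tested passed as higher and 16.3% as lower. With 6 genes, these counts cannot be set apart from those shares. Slc6a4, the serotonin transporter, rose from 8.72 ± 2.81 to 39.9 ± 3.51 CPM (log2 fold change 2.19, SE 0.50, adjusted p = 0.00477 in edgeR) and stood at 52.6 ± 1.3 CPM in spleen. Slc6a13, a GABA transporter, fell from 4.7 ± 1.86 to 0.989 ± 0.609 CPM (adjusted p = 0.0117 in edgeR, SD, n = 3) and was named after its value was seen. In limma-voom 1 of the 6 rose and none fell, and in DESeq2 2 rose and 1 fell. The counts were 2 higher and 1 lower when BaP replicate 3 was left out, where 15.8% of all genes passed as higher and 19.8% as lower. The family's median log2 fold change was 0.08, against 0.00 over all genes, and none of the 6 passed the test between pre-basophils and BaPs (1 higher and 1 lower at an unadjusted p under 0.05) or between the mature groups (1 higher), in edgeR, DESeq2 or limma-voom. Without BaP replicate 3, 1 was higher and 1 lower in pre-basophils than in BaPs, and 1 was higher in spleen. Over all genes, 6.47% passed as higher and 5.97% as lower in the former comparison, and 7.99% as higher in spleen. Per kilobase of exon, the Slc6a9 level of 6.41 CPM in spleen compared with 11.6 for Slc6a4, 5.27 for the taurine transporter Slc6a6 and less than 1 for the other 4. Slc6a4 is also carried by platelets. The summed megakaryocyte and platelet markers were 515 to 601 CPM in pre-basophil, 583 to 665 in BM mature and 715 to 1051 in spleen libraries. Most of each sum was Itga2b, at 541 ± 43.1, 543 ± 29.8 and 685 ± 184 CPM (SD, n = 3). Since Itga2b was level from pre-basophils to BM mature basophils, the other markers together were on average higher in BM mature basophils, as Slc6a4 was. The part of platelets in the Slc6a4 level was not tested.

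Genes of glycine supply and use were mostly lower where Slc6a9 was higher. Of 21 tested, 13 fell and 1 rose from pre-basophils to BM mature basophils, where 16.3% of all genes passed as lower and 11% as higher, and their median log2 fold change was -0.81 against 0.00. Of those with at least 10 CPM in pre-basophils, the largest falls were in Psat1 and Phgdh, enzymes of serine synthesis, in Mthfd2 and Shmt2, mitochondrial enzymes that handle the one-carbon units of serine and glycine, and in Alas1, which uses glycine to start heme synthesis. Psat1 fell from 24.2 ± 3.46 to 2.35 ± 0.415 CPM (log2 fold change -3.33, adjusted p = 9.08e-06 in edgeR). Mthfd2 fell from 22.9 ± 3.9 to 3.54 ± 0.944 CPM (adjusted p = 2.71e-05 in edgeR). Phgdh fell from 12.7 ± 2.85 to 2.73 ± 0.61 CPM (adjusted p = 0.000101 in edgeR, SD, n = 3). Shmt2 and Alas1 changed by -1.92 and -0.88 (adjusted p = 2.38e-05 and 0.0158 in edgeR). Among genes at lower levels, Gatm, which makes a creatine precursor from glycine, fell by 3.04 on the log2 scale (adjusted p = 0.0194 in edgeR) and was named after its value was seen. The 1 gene that rose, named after its value was seen, was the neutral amino acid transporter Slc38a2, from 81.2 to 108 CPM (log2 fold change 0.41, adjusted p = 0.0488 in edgeR). In limma-voom 12 of the 21 fell and none rose, and in DESeq2 12 fell and 2 rose. The 14 calls dropped to 8 without pre-basophil replicate 1 and to 9 without BM mature replicate 3. With BaP replicate 3 left out, 13 fell and 2 rose. From BaP to pre-basophil 5 of the 21 were lower and 1 higher, where 2.79% of all genes passed as lower and 4.29% as higher. Without BaP replicate 3, 8 were lower and 1 higher, beside 5.97% and 6.47%. The 1 higher with all libraries was the glutathione synthase Gss (log2 fold change 0.77, adjusted p = 0.0331 in edgeR). In spleen against BM mature basophils Mthfd2 alone, named after its value was seen, was lower (-2.17, adjusted p = 0.0107 in edgeR). Over all genes 4.67% passed as lower in spleen, and limma-voom called none of the 21. Without BaP replicate 3, 2 were lower and 1 higher in spleen, beside 10% and 7.99%.

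**Figure D3:**
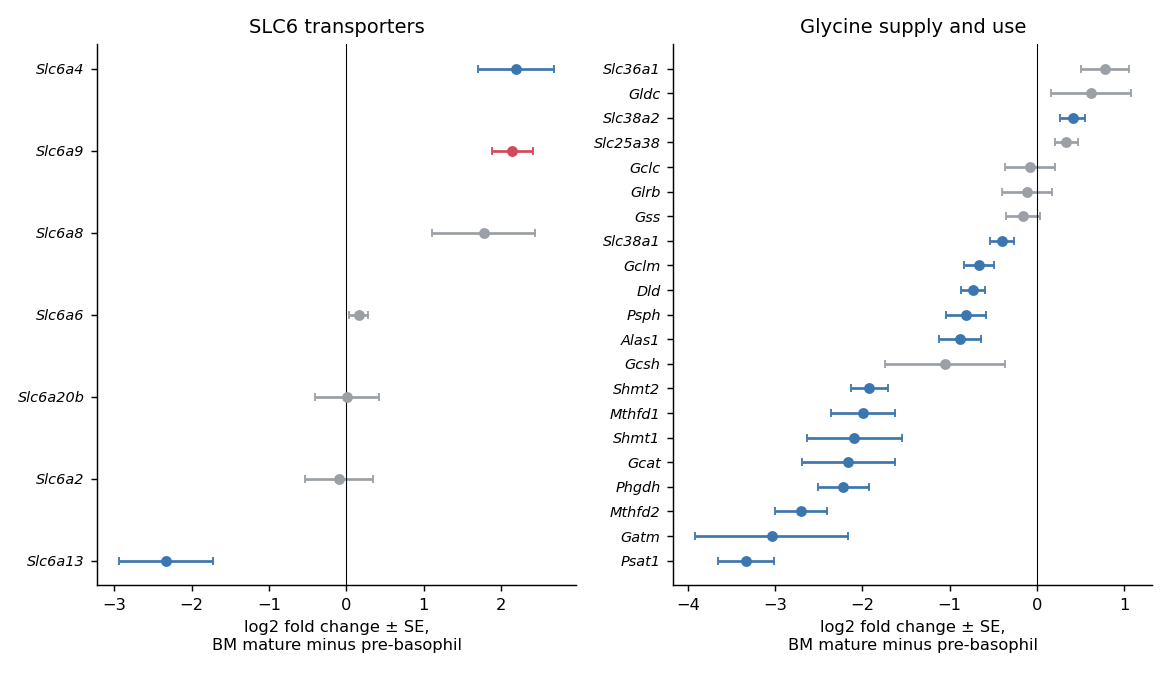
Fitted log2 fold change with its SE (horizontal axis), BM mature minus pre-basophil, of the tested SLC6 transporters (left) and genes of glycine supply and use (right). Blue points passed the test at an adjusted p under 0.05, grey ones did not, and red is Slc6a9, which was not tested at this step. Slc6a9 (2.14) and Slc6a4 (2.19) lie together at the top on the left, and Psat1 (-3.33) is the lowest point on the right.

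No other listed tight junction gene passed the test from pre-basophil to BM mature basophil, one of the steps that the choice of Cldn1 rests on. Of 45 claudins and tight junction partners in the list, 12 besides Cldn1 passed the count filter. From pre-basophil to BM mature basophil none of them passed in edgeR, DESeq2 or limma-voom, with 1 lower at an unadjusted p under 0.05. Over all genes tested, 11% passed as higher and 16.3% as lower at this step in edgeR. Most of the 12 had a mean under 10 CPM in every group, which limits the test. From BaP to pre-basophil none passed in edgeR, where 4.29% of all genes passed as higher and 2.79% as lower. Of the 12, 2 were higher and 1 lower at an unadjusted p under 0.05, and 1 passed as higher in DESeq2 and in limma-voom. The counts in edgeR were also 0 at both steps without BaP replicate 3. Their median log2 fold change from pre-basophil to BM mature basophil was -0.08. Only 2 other genes with a claudin name were tested. Per kilobase, Cldnd1 went from 15.2 CPM in pre-basophils to 11.9 CPM in BM mature basophils and Cldn34c1 from 0.566 to 0.652, where Cldn1 went from 0.111 to 4.42. In spleen against BM mature basophils, Cldnd1 (log2 fold change -0.72, adjusted p = 0.0175 in edgeR) and Afdn, an adaptor protein of cell junctions (-0.61, adjusted p = 0.0488 in edgeR), were lower. Over all genes tested, 3.16% passed as higher and 4.67% as lower in spleen.

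Of the CD7 ligands and PI3K subunits, 8 were tested. Lgals1, which encodes the CD7 ligand galectin-1, went the other way from Cd7: it fell from 558 ± 61.8 CPM in pre-basophils to 239 ± 20.8 in BM mature basophils (log2 fold change -1.22, adjusted p = 0.000398 in edgeR, SD, n = 3) and to 128 ± 20.2 in spleen (-0.90 against BM, adjusted p = 0.0157 in edgeR). From pre-basophil to BM mature basophil 2 of the 8 fell and none rose in edgeR, with 2 higher at an unadjusted p under 0.05 and 1 in DESeq2, and 4 rose without BaP replicate 3. Over all genes 11% rose and 16.3% fell, and 15.8% rose without that library. Pik3ca, a catalytic subunit of PI3K, was higher in spleen than in BM mature basophils (0.76, adjusted p = 0.0358 in edgeR), and Pik3cg, the gamma catalytic subunit, was higher in pre-basophils than in BaPs (0.46, adjusted p = 0.0464 in edgeR).

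Other immunoglobulin-type receptors of lymphocytes passed the test in both directions. Of 15 tested, 2 rose and 2 fell from pre-basophil to BM mature basophil, beside the 11% and 16.3% over all genes. Cd244a and Cd84, receptors of the SLAM family, rose by log2 fold changes of 0.70 and 0.67 (adjusted p = 0.000494 and 0.000455 in edgeR), and both were also higher in pre-basophils than in BaPs. Thy1, a surface glycoprotein of T cells, fell from 238 ± 6.07 to 64.8 ± 8.29 CPM (adjusted p = 8.79e-05 in edgeR, SD, n = 3), and Cd48, the ligand of CD244, from 99.2 to 59.2 CPM (adjusted p = 0.000717 in edgeR). Thy1 and Cd48 were lower again in spleen (adjusted p = 0.00606 and 0.00654 in edgeR). All of the list but Thy1 and Cd48 had a log2 fold change above 0 from pre-basophil to BM mature basophil, most without passing the test. The median of the list was 1.18 at that step, against 0.00 over all genes, and -1.95 from BaP to pre-basophil, against -0.02. The latter median includes BaP replicate 3. From BaP to pre-basophil 2 of the 15 passed as higher and 0 as lower, where 4.29% and 2.79% of all genes did. With that library left out, 3 passed as higher and 0 as lower, where 6.47% and 5.97% of all genes did. Without BaP replicate 3, in which NK and T cell transcripts were high, 8 of the 15 rose and 2 fell from pre-basophil to BM mature basophil, where 15.8% of all genes rose and 19.8% fell.

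Among 51 other genes named Wdr followed by a number, 5 rose and 8 fell from pre-basophil to BM mature basophil, shares near the 11% and 16.3% over all genes tested, with a median log2 fold change of -0.21. The counts were 5 and 11 without BaP replicate 3. Of those with at least 10 CPM in the higher group, Wdr76 changed most, from 14.3 ± 1.95 to 2.39 ± 0.42 CPM (-2.60, adjusted p = 5.26e-06 in edgeR, SD, n = 3). Wdr74 and Wdr36 also fell (-1.17 and -1.12), and Wdr31 and Wdr44 rose by 1.07 and 0.74 (adjusted p = 0.00236 and 0.00127 in edgeR), against the fitted 4.60 of Wdr95. At lower levels, Wdr62 (-2.30, adjusted p = 0.000448 in edgeR) and Wdr90 (-1.53) also fell and were named after their values were seen. In spleen against BM mature basophils Wdr92 alone passed, as lower (-0.97, adjusted p = 0.00664 in edgeR), where 3.16% of all genes passed as higher and 4.67% as lower. Without BaP replicate 3, 3 were higher and 2 lower in spleen, beside 7.99% and 10%. From BaP to pre-basophil 1 rose and 4 fell, where 4.29% of all genes rose and 2.79% fell. Without BaP replicate 3, 3 rose and 4 fell at that step, beside 6.47% and 5.97%.

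The 3 tested genes on each side of each gene were compared, 24 in all. From pre-basophil to BM mature basophil 5 of the 24 rose and 1 fell, where 11% of all genes tested rose and 16.3% fell. Around Cd7, the antisense transcripts Gm28192 (log2 fold change 1.79, adjusted p = 0.0128 in edgeR) and Gm11775 (2.64, adjusted p = 0.0281 in edgeR) rose and Ogfod3 fell (-1.30, adjusted p = 0.00949 in edgeR). Gm11775 runs opposite to Cd7 and shares 122 exonic bases with it. It had 24 reads over the BM mature and 66 over the spleen libraries, against 13273 and 28532 for Cd7, and since no source used here states whether strand was used in counting, reads of the 2 genes cannot be told apart there. Next to Cldn1, Il1rap, 209.9 kb away and encoding the shared receptor subunit for IL-1 and IL-33, rose from 24.9 to 53.1 CPM (1.09, adjusted p = 8.48e-05 in edgeR). Next to Slc6a9, Atp6v0b, 9.1 kb away and encoding a subunit of the vacuolar proton pump, rose from 200 to 363 CPM (0.86, adjusted p = 6.55e-05 in edgeR), and the non-coding Gm12840 by 0.89 (adjusted p = 0.000591 in edgeR). Both were also higher in pre-basophils than in BaPs (adjusted p = 0.00126 and 0.00619 in edgeR), as Slc6a9 was. Of the 24 only Alox5ap near Wdr95 also passed there (0.88, adjusted p = 0.0159 in edgeR). That makes 3 of the 24 higher and 0 lower, where 4.29% of all genes passed as higher and 2.79% as lower. The values of these neighbours are from the fit with all 12 libraries, BaP replicate 3 among them. The genes around Wdr95 did not pass the test at the maturation step, among them Hsph1, a chaperone gene 2.4 kb away (0.31, adjusted p = 0.619 in edgeR), and Alox5ap, of leukotriene synthesis (0.18, adjusted p = 0.516 in edgeR). Slc6a9 shares 1429 exonic bases with Ccdc24 on the other strand, which had 6 and 17 reads over the BM and spleen mature libraries against 290 and 653 for Slc6a9, and 46 with B4galt2, which had at most 4 reads in a group.

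**Figure D4:**
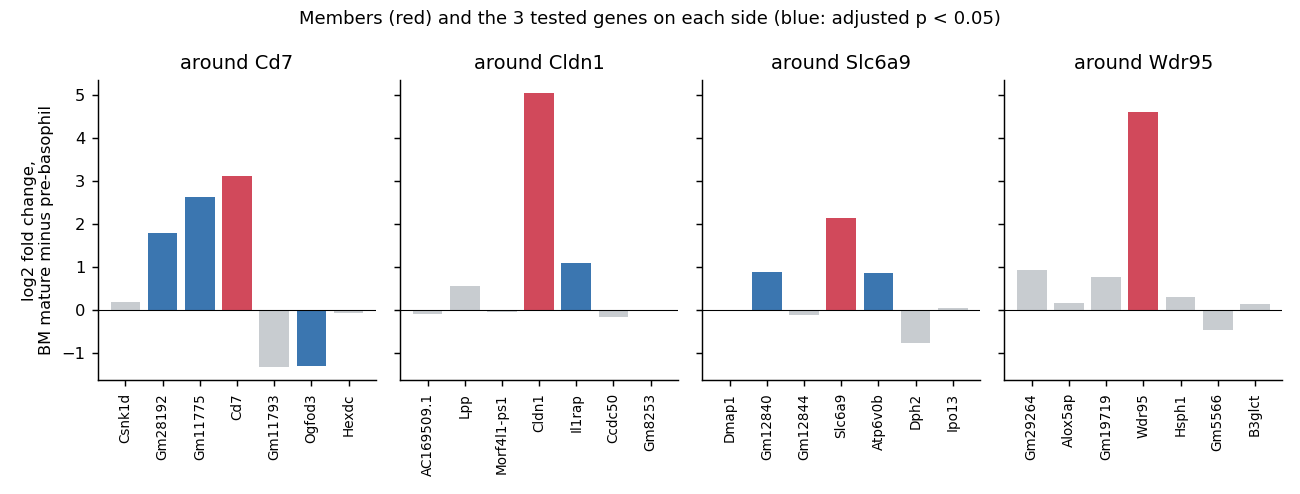
Log2 fold change, BM mature minus pre-basophil (vertical axis), of each gene (red, not tested at this step) and the 3 tested genes on each side in order of gene start. Blue bars passed the test at an adjusted p under 0.05 and grey bars did not. Each red bar, from 2.14 for Slc6a9 to 5.04 for Cldn1, is the tallest of its panel, and the nearest in height is Gm11775 beside Cd7 (2.64 against 3.11).

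The genes most alike in pattern were found by Pearson's r of log2 CPM over the 12 libraries, among 9639 genes with a mean of at least 10 CPM in their highest group. These points share groups and the one divergent library, so r is a description. Cd7 was closest to Lsp1 (0.992), Samhd1 (0.991), Itgb3 (0.991), Pag1 (0.989) and Ccser2 (0.988). Like Cd7, these 5 had their highest BaP value in replicate 3, for Samhd1 135 CPM against 34.2 and 46.7, and for Itgb3, an integrin subunit, 72.3 CPM against 11.7 and 18.4. Slc6a9 was closest to Osbpl5 (0.994), Tulp4 (0.993), Abr (0.992), Gm2792 (0.990) and Trim12a (0.990), whose mean levels were higher in each group than in the one before, as its own were, for Tulp4 63.1, 167, 534 and 679 CPM. Wdr95 was closest to Fabp5 (0.992), a fatty acid binding protein that went from 12.1 and 10 CPM in BaPs and pre-basophils to 58.1 and 77 CPM in BM and spleen mature basophils, then Tnrc6a (0.982), Slc4a7 (0.979), Rexo5 (0.979) and Phf20l1 (0.977). Cldn1 was closest to Sirt5 (0.979), a mitochondrial deacylase, then Gm48368 (0.974), Crtc1 (0.972), Noct (0.969) and AC119928.2 (0.969). Among the 4 genes themselves r ran from 0.859 for Cldn1 and Slc6a9 to 0.968 for Cldn1 and Wdr95. High values of r were common: 7.08% of the genes compared reached 0.9 with Cd7, 3.75% with Cldn1, 7.66% with Slc6a9 and 5.49% with Wdr95.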

How the data were processed

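Bulk RNA-seq counts of 12 libraries were analysed, in 4 groups of 3 taken from the sample titles. Per the deposited table, values are raw read counts per gene symbol. The authors trimmed reads with Cutadapt 3.4, mapped them with Bowtie2 2.4.2 to reference transcripts and counted reads per gene. The study's methods name GRCm38 and the submitters' processing notes GRCm39 (mm39), so the coordinates given, from GENCODE M21 on GRCm38, may not be on the authors' build. Of the genes tested, 97% matched 1 GENCODE gene. Strand use and the handling of reads that match several genes are not given in the sources used here.

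Genes were filtered with filterByExpr by group, scaled with TMM factors (trimmed mean of M values) and fitted in 1 quasi-likelihood model of all 12 libraries in edgeR 4.0.16 (R 4.3.3), with Benjamini-Hochberg adjustment over all genes tested and a threshold of 0.05. CPM used the TMM-scaled totals, and log2 CPM a prior count of 2. On simulated counts with 200 genes changed 4-fold between spleen and BM mature libraries, 159 were recovered, with 9 false calls. Alternatives were other scalings, no filter, DESeq2 1.42.0, limma-voom (limma 3.58.1), a minimum change of 2-fold, the 2 groups alone, the replicate number as a block, and each library left out. Every pair of libraries within a group differed by more than sampling noise (chi-square per degree of freedom 4.16 to 35).

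The 4 genes, the lists and the tests were chosen with earlier results of these data known. Genes named from a list are those that passed, up to the 5 with the largest change and at least 10 CPM in the higher group. Same-numbered BaP and pre-basophil libraries deviated together (r = 0.125 to 0.262 between deviations from group means), as did pre-basophil and BM mature libraries (0.138 to 0.223). BM and spleen mature libraries did not (0.008 to 0.025). Any pairing by number is thus read from the data alone. The main tests were unpaired, and the replicate number entered only as a block in an alternative fit. The marker lists not described with the results gave these summed levels over all libraries: neutrophil 252 to 2705 CPM (most abundant Mpo), monocyte, macrophage and dendritic cell 52.3 to 351 CPM (Ccr2).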

Additional observations from a re-analysis of the deposited data

How the results depend on the processing

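Leaving out BaP replicate 3 changed the call in 4 of the 8 tested differences of the 4 genes. Without it, the log2 fold change of pre-basophil minus BaP was 2.61 for Cd7 (a call gained), 0.79 for Cldn1 and 0.70 for Wdr95 (signs turned, not called), and spleen minus BM mature became a call at 0.44 for Cd7, 0.50 for Slc6a9 and 0.89 for Wdr95. With the 2 mature groups alone the latter were called at 0.44, 0.49 and 0.89. Without the low-count filter Cd7 was called at 0.48 (pre-basophil minus BaP) and 0.46 (spleen minus BM), and Wdr95 at 0.91 (spleen minus BM), as it was with limma-voom at 0.89. The call of Slc6a9 in pre-basophil minus BaP (2.21) was lost against a minimum change of 2-fold. Cldn1 in spleen minus BM turned to 0.02 with library size alone, and to 0.11, 0.07 and 0.03 without BM mature replicate 3 and spleen mature replicates 1 and 2.

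Leaving out each library in turn gave these lowest and highest log2 fold changes. For pre-basophil minus BaP they were 0.05 and 2.61 (Cd7), -1.90 and 0.79 (Cldn1), 1.89 and 3.08 (Slc6a9), -1.30 and 0.70 (Wdr95). For spleen minus BM mature they were 0.41 and 0.47 (Cd7), -0.49 and 0.11 (Cldn1), 0.44 and 0.55 (Slc6a9), 0.82 and 0.94 (Wdr95). For BM mature minus pre-basophil they were 2.99 and 3.20 (Cd7), 4.61 and 6.25 (Cldn1), 1.96 and 2.31 (Slc6a9), 4.31 and 5.35 (Wdr95). The direction of this last step was kept for all 4 genes under every alternative run. Since the choice of the genes rests on this step and the alternatives use the same libraries, nothing is read from that.

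Counts of genes called depended more on the settings. For spleen minus BM mature, 1181 genes were called, 241 (without spleen mature replicate 3) to 2653 (without BaP replicate 3) with a library left out, 1796 without the filter, 11 with a minimum change and 2340 with the 2 groups alone. For pre-basophil minus BaP, 1068 were called, 382 (without pre-basophil replicate 3) to 1831 (without BaP replicate 3) with a library left out, 1620 with library size alone, 2091 without the filter, 4 with a minimum change and 375 with the 2 groups alone. For BM mature minus pre-basophil, 4112 were called, 2831 to 5251 with a library left out and 494 with a minimum change. The 6 lists held 12, 6, 21, 8, 15 and 51 tested genes besides the 4, of 15083 tested in all. Of these listed genes, 35 were called in BM mature minus pre-basophil (23 to 50 with a library left out), where 11% of all genes passed as higher and 16.3% as lower. In spleen minus BM 8 were called (3 to 21, and 14 without the filter), where 3.16% passed as higher and 4.67% as lower. In pre-basophil minus BaP 14 were called (4 to 23, and 34 without the filter), where 4.29% passed as higher and 2.79% as lower. The causes were not tested.

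With the replicate number as a block, pre-basophil minus BaP was 2.19 for Slc6a9 (adjusted p = 0.00327 in edgeR) and the block changed no call on the 4 genes. It gave 1399, 4483 and 1703 calls for pre-basophil minus BaP, BM mature minus pre-basophil and spleen minus BM. DESeq2 gave no adjusted p for Cd7 in either tested step, and Cldn1 did not pass the filter in the fit of BaPs and pre-basophils alone. Of the 5 genes of most similar pattern, Spearman's rho kept 1 for Cd7, 1 for Cldn1 and 0 for Slc6a9 and Wdr95, and removing group means kept 2 for Slc6a9 and 0 for the others. Depth limits Cldn1 and Slc6a9 in immature cells, where most libraries had under 20 reads of either.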
